A study of Homo sapiens with 6 samples.

Results

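The Hippo pathway core was followed here as a set of 10 human genes, MOB1A, MOB1B, LATS1, LATS2, STK3, STK4, SAV1, NF2, YAP1 and WWTR1, out of 62492 features in the deposited table. The set was chosen by the footprint counts of the comparison described below, with MOB1A as its leading gene, and was completed with the known partners of MOB1A in the pathway. The members were taken as the rows whose Ensembl ID, without its version, matched the ID given for each gene. All 10 were found, and all 10 passed the filter on low counts that left 11653 features for testing. Their values were therefore used in choosing them, and they are given as a description of these libraries and not as independent support.

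Ribosome footprints, the short stretches of mRNA that ribosomes protect from a nuclease, were counted in 6 libraries of WPMY-1, an immortalised human prostate stromal myofibroblast line. In 3 libraries (control) the cells carried a control hairpin and are labelled wildtype for TRMT61A. In the other 3 (knockdown) they carried the hairpin sh61A against TRMT61A, which encodes the catalytic subunit of the enzyme that methylates adenosine to m1A in tRNA. The labels name no treatment or time point. They give a single cell line and a single TRMT61A hairpin, and do not say whether the libraries of a group were separate cultures. The p-values therefore rest on a spread between libraries that may be only technical. Totals ran from 6771455 to 17752247 counts per library, and the 10 genes together held between 2175 and 3620 of them. The knockdown libraries had the larger totals. The level of TRMT61A and the markers of stromal and other cell types were not analysed here, because no table used here pairs the IDs with symbols.

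In the Hippo pathway, the kinases STK3 and STK4 (MST2 and MST1), held together by the scaffold SAV1, phosphorylate the kinases LATS1 and LATS2 and their adaptors MOB1A and MOB1B. NF2 (merlin) brings LATS kinases to the membrane. Active LATS kinases phosphorylate the co-activators YAP1 and WWTR1 (TAZ), which keeps them out of the nucleus and away from the TEAD transcription factors. In fibroblasts YAP1 and WWTR1 are known for driving matrix and contractile genes on stiff substrates.

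TEAD factors recognise the core motif CATTCC, and LATS2 is a known target gene of YAP1 and TEAD within a negative feedback loop. The motif was therefore looked for in the promoter windows of the members in RefSeq (GRCh38.p14), from 250 bases before to 50 bases after a start, on both strands. A window was found for 9 of the 10 members, all but STK3. There were 2 windows for 4 of them, which makes 13 in all, and the 2 of NF2 overlapped. The motif lay in 2 of the 13 windows, 1 each of LATS2 and YAP1. That is close to the share over all windows, 14.0% of 35116. In LATS2 the match began at base 10 of the transcript, and in YAP1 it began 162 bases before the start. Both matches read GGAATG on the gene's strand, the reverse complement of the motif, and are shown in capitals within 30 bases because these are the only members whose windows held it:

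LATS2, chr13:21061560-21061589, minus strand: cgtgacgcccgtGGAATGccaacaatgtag

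YAP1, chr11:102110273-102110302, plus strand: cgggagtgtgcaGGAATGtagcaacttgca

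The match is a description of letters and not a binding site shown by these data.

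Between the groups, 3 members differed past the adjusted threshold of 0.05 in edgeR's quasi-likelihood test over all features, 1 higher and 2 lower. MOB1A and WWTR1 were lower in the knockdown, by 5.07-fold and 2.34-fold, and LATS2 was higher by 3.71-fold. MOB1B and LATS1 did not pass, but their log2 differences of -1.63 and -1.25 were no smaller in size than that of WWTR1 (-1.22). Over all tested features 3.12% passed (364 of 11653), 1.48% higher and 1.64% lower, and nothing is read from the members' count because this comparison entered their choice. When libraries were scaled by their totals only, 63 features were higher and 334 lower instead of 173 and 191, and the same 3 members were called. The groups lay wholly apart in 5 of the 10 genes, 1 higher and 4 lower in the knockdown, against 24.8% of all tested features. The median log2 change of the 10 genes was 0.01, with 5 above 0 and 5 below, and the median of all tested features was -0.0047. Among the members, WWTR1 was the last inside the threshold (adjusted p = 0.0471 in edgeR) and MOB1B the first outside it (adjusted p = 0.182). Footprints combine the amount of an mRNA with its translation, and these 2 were not separated here. In bulk libraries, fewer cells with footprints on a gene and fewer footprints per cell cannot be told apart either.

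**Figure D1:**
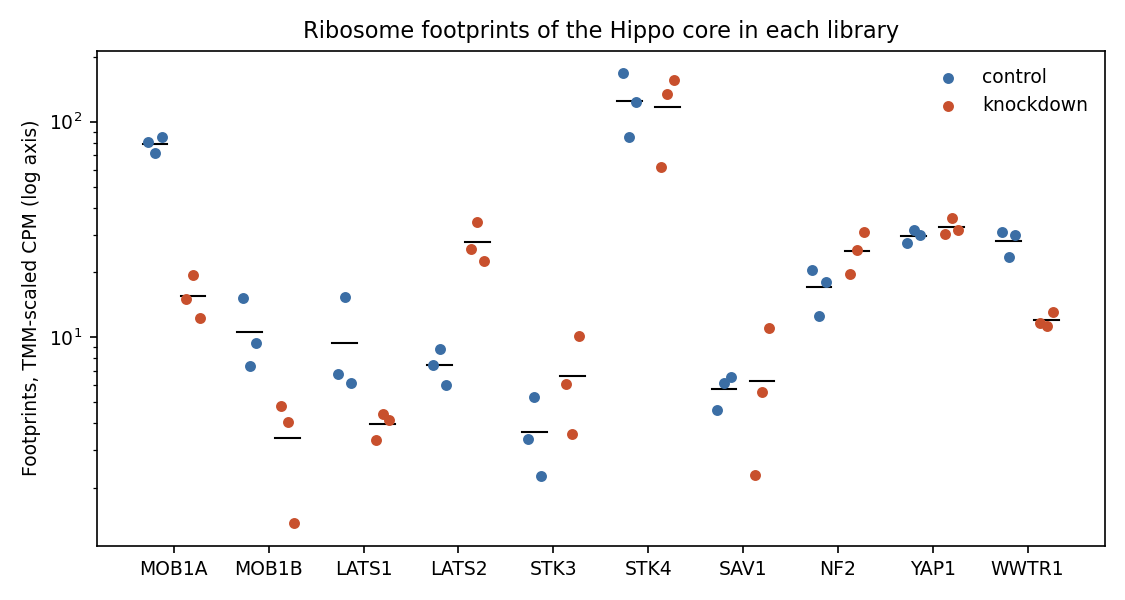
Footprints of the 10 genes in each library, as TMM-scaled CPM (counts per 1000000) on a log axis, with control in blue, knockdown in red and a black line at each group's mean (n = 3). The groups lie apart for MOB1A, MOB1B, LATS1, LATS2 and WWTR1 and overlap for the other 5; genes are not compared with each other, since the values are not divided by length.

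MOB1A (ENSG00000114978), the adaptor that binds LATS kinases and is itself a substrate of STK3 and STK4, had 594, 584 and 751 counts in control libraries 1 to 3. It had 230, 229 and 152 counts in knockdown libraries 1 to 3. Scaled to library size with the trimmed-mean (TMM) factors of edgeR and expressed as counts per 1000000 (CPM), these were 80.5, 71.6 and 85.2 CPM in control and 15.1, 19.4 and 12.3 CPM in knockdown. Every control library lay above every knockdown library, even in raw counts, although the knockdown libraries were deeper. The group means were 79.1 ± 6.9 and 15.6 ± 3.6 CPM (SD, n = 3 each), and the log2 change came to -2.34 ± 0.26 (SE), with a 95% interval from -2.91 to -1.77. The change ran from -2.64 to -2.19 over the 15 alternative settings. MOB1A was among the called features in each of them. It was chosen by this same comparison, so the repeated call is no independent support.

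MOB1B (ENSG00000173542), the close paralogue of MOB1A with the same adaptor role, had lower counts in the same direction. Its values were 15.2, 7.36 and 9.41 CPM in control, from 112, 60 and 83 counts. In knockdown they were 4.80, 4.07 and 1.38 CPM, from 73, 48 and 17 counts. The groups did not overlap, but knockdown library 3 was far below the other knockdown libraries, and the coefficients of variation were 38.1% in control and 52.8% in knockdown. The log2 difference was -1.63 ± 0.60 (SE) with a 95% interval from -2.94 to -0.33, and it did not pass the threshold over all features (adjusted p = 0.182 in edgeR). How reads that match both MOB1 genes were counted is not stated, so the division between them is uncertain. With their counts added into 1 feature, MOB1 footprints averaged 89.8 ± 9.4 CPM over the controls and 19.0 ± 5.0 CPM over the knockdown libraries (SD, n = 3 each), a log2 difference of -2.24 ± 0.27 (SE). The summed difference was close to that of MOB1A alone.

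The share of MOB1A in the counts of the pair does not depend on how libraries are scaled. It was 84.1%, 90.7% and 90.0% in control libraries 1 to 3 and 75.9%, 82.7% and 89.9% in knockdown libraries 1 to 3. The groups overlapped, since knockdown library 3 lay within the control range. The means were 88.3% ± 3.6 and 82.8% ± 7.0 (SD, n = 3 each), so the division within the MOB1 pair differed by less than the spread between the knockdown libraries.

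Of the LATS kinases, which MOB1 proteins activate, LATS2 was higher in the knockdown, and LATS1 did not pass the threshold. LATS2 (ENSG00000150457) had 55, 72 and 53 counts in control and 391, 405 and 280 in knockdown. That was 7.46, 8.83 and 6.01 CPM against 25.7, 34.3 and 22.7 CPM. The lowest knockdown library stood well above the highest control library, with group means of 7.43 ± 1.41 and 27.6 ± 6.0 CPM (SD, n = 3 each). The log2 change was 1.89 ± 0.34 (SE), with a 95% interval from 1.15 to 2.63 (adjusted p = 0.0143 in edgeR). The size ran from 1.59 with library size alone to 2.03 without control library 2. The call was lost in edgeR without control library 1, 2 or 3 (adjusted p = 0.0517, 0.0627 and 0.0710) and without knockdown library 2 (0.0786).

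LATS1 (ENSG00000131023), the other LATS kinase, had 50, 125 and 54 counts in control and 51, 52 and 51 in knockdown. The like raw counts came from libraries of unlike depth, so in CPM they were 6.78, 15.3 and 6.12 in control and 3.35, 4.41 and 4.13 in knockdown. The groups did not overlap, and control library 2 stood far above the other two controls. The log2 difference of -1.25 ± 0.56 (SE) did not pass the threshold (adjusted p = 0.296 in edgeR, 95% interval -2.47 to -0.02), and without control library 2 it was -0.71.

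Within the LATS pair the division of footprints differed between the groups. LATS1 held 47.6%, 63.5% and 50.5% of the pair's counts in control libraries 1 to 3, and 11.5%, 11.4% and 15.4% in knockdown libraries 1 to 3. The exact 95% binomial intervals, which cover counting error only, reached down to 37.8% in control and up to 19.8% in knockdown. Control libraries averaged 53.8% ± 8.4 and knockdown libraries 12.8% ± 2.3 (SD, n = 3 each), a difference of -41.1 percentage points. The shares are not divided by gene length, so they compare libraries and not the levels of LATS1 and LATS2. Added into 1 feature, the pair averaged 16.8 ± 6.4 CPM over the controls and 31.5 ± 6.3 CPM over the knockdown libraries (SD, n = 3 each), a log2 difference of 0.90 ± 0.33 (SE) that did not pass the threshold (adjusted p = 0.180 in edgeR).

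**Figure D2:**
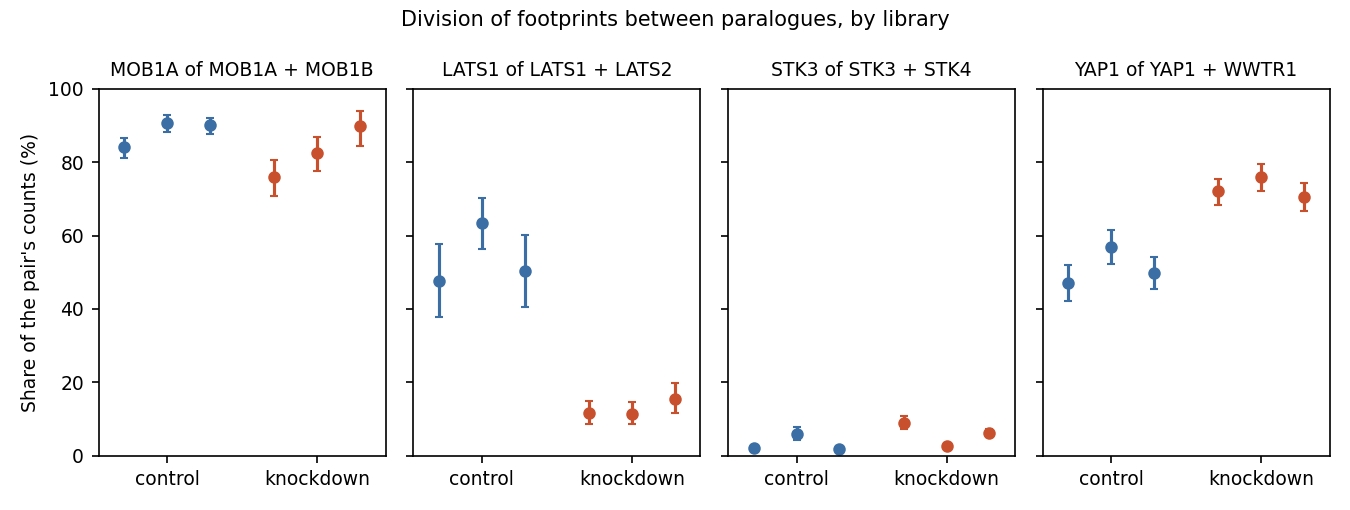
Share of the first-named gene in the counts of its paralogue pair, in percent, for each library (control replicates 1 to 3 in blue, knockdown replicates 1 to 3 in red), with exact 95% binomial intervals. The knockdown libraries lie below the controls for LATS1 and above them for YAP1, and overlap with them for MOB1A and STK3.

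The upstream kinases and scaffolds showed no difference past the threshold. STK4 (ENSG00000101109), the MST1 kinase, had 1237, 690 and 1091 counts in control and 939, 1585 and 1926 in knockdown. Its values were 168, 84.6 and 124 CPM in control and 61.7, 134 and 156 CPM in knockdown. The groups overlapped over most of their range, and knockdown library 1 was the lowest of the 6. The log2 difference was -0.10 ± 0.34 (SE), with a 95% interval from -0.84 to 0.65 (adjusted p = 0.945 in edgeR). The sign turned without control library 1 (0.17) and without knockdown library 1 (0.21). The estimates of MOB1A, MOB1B, LATS1, LATS2, STK3 and WWTR1 lay outside this interval, but each has an error of its own.

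STK3 (ENSG00000104375), the MST2 kinase, was measured with few counts, 25, 43 and 20 in control and 93, 42 and 126 in knockdown. These were 3.39, 5.27 and 2.27 CPM in control and 6.11, 3.56 and 10.2 CPM in knockdown. The groups overlapped through knockdown library 2. The log2 difference of 0.86 ± 0.67 (SE) had a 95% interval from -0.59 to 2.32 (adjusted p = 0.614 in edgeR). At this depth and spread it was not told apart from 0. The interval held both a rise as large as that of LATS2 and a small fall. STK3 held between 1.80% and 5.87% of the counts of the STK3 and STK4 pair in control libraries and between 2.58% and 9.01% in knockdown libraries. Both ranges overlapped, and the pair added together had a log2 difference of -0.06 ± 0.33 (SE).

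SAV1 (ENSG00000151748), the scaffold that joins STK3 and STK4 to LATS kinases, had 34, 50 and 58 counts in control and 35, 66 and 136 in knockdown. Its values were 4.61, 6.13 and 6.58 CPM in control and 2.30, 5.59 and 11.0 CPM in knockdown. The knockdown libraries lay on both sides of the controls, with a coefficient of variation of 69.8% against 17.9%. The log2 difference was 0.12 ± 0.64 (SE), with a 95% interval from -1.28 to 1.53 (adjusted p = 0.962 in edgeR). Its sign turned with library size alone (-0.15) and without knockdown library 3 (-0.54), so SAV1 had no settled direction.

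NF2 (ENSG00000186575), the membrane scaffold whose loss activates YAP1, had 151, 102 and 160 counts in control and 299, 299 and 380 in knockdown. In CPM these were 20.5, 12.5 and 18.1 in control and 19.7, 25.3 and 30.8 in knockdown. Knockdown library 1 lay just below the highest control, and the other knockdown libraries above all controls. The means were 17.0 ± 4.1 and 25.3 ± 5.6 CPM (SD, n = 3 each), a log2 difference of 0.57 ± 0.32 (SE) with a 95% interval from -0.13 to 1.26 (adjusted p = 0.433 in edgeR). The difference was above 0 in all 15 alternatives, from 0.31 to 0.72, and passed the threshold in none of them.

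The co-activators at the end of the pathway differed from each other in the same libraries. WWTR1 (ENSG00000018408) had 228, 193 and 263 counts in control and 178, 133 and 162 in knockdown. Its values were 30.9, 23.7 and 29.8 CPM in control and 11.7, 11.3 and 13.1 CPM in knockdown. The groups were well apart, and the knockdown libraries were close to each other. The means were 28.1 ± 3.9 and 12.0 ± 1.0 CPM (SD, n = 3 each), and the log2 change was -1.22 ± 0.30 (SE) with a 95% interval from -1.87 to -0.58 (adjusted p = 0.0471 in edgeR). The size ran from -1.50 to -1.16 over 15 alternatives, but the call was lost whichever of the 6 libraries was left out. Without control libraries 1 to 3 the adjusted p was 0.138, 0.117 and 0.163 in edgeR, and without knockdown libraries 1 to 3 it was 0.109, 0.134 and 0.0985.

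YAP1 (ENSG00000137693), the paralogue of WWTR1, had 203, 256 and 262 counts in control and 461, 420 and 390 in knockdown. It had 27.5, 31.4 and 29.7 CPM in control and 30.3, 35.6 and 31.6 CPM in knockdown. The groups overlapped, and the spread was small, with coefficients of variation of 6.55% and 8.48%. The log2 difference was 0.14 ± 0.25 (SE), with a 95% interval from -0.40 to 0.68 (adjusted p = 0.869 in edgeR). With library size alone, which moved the median of all features to -0.30, YAP1 was at -0.16.

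The division between the co-activators is free of that scaling. YAP1 held 47.1%, 57.0% and 49.9% of the YAP1 and WWTR1 counts in control libraries 1 to 3, and 72.1%, 75.9% and 70.7% in knockdown libraries 1 to 3. The highest control interval ended at 61.6% and the lowest knockdown interval began at 66.7%. These intervals cover counting error only. Those of control libraries 1 and 2, ending at 51.9% and beginning at 52.3%, did not overlap each other either. Control libraries averaged 51.3% ± 5.1 and knockdown libraries 72.9% ± 2.7 (SD, n = 3 each), a difference of 21.6 percentage points. The counts of both genes together averaged 57.7 ± 2.3 CPM over the controls and 44.5 ± 2.4 CPM over the knockdown libraries (SD, n = 3 each). Their log2 difference of -0.37 ± 0.22 (SE) did not pass the threshold (adjusted p = 0.461 in edgeR), although these groups did not overlap.

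**Figure D3:**
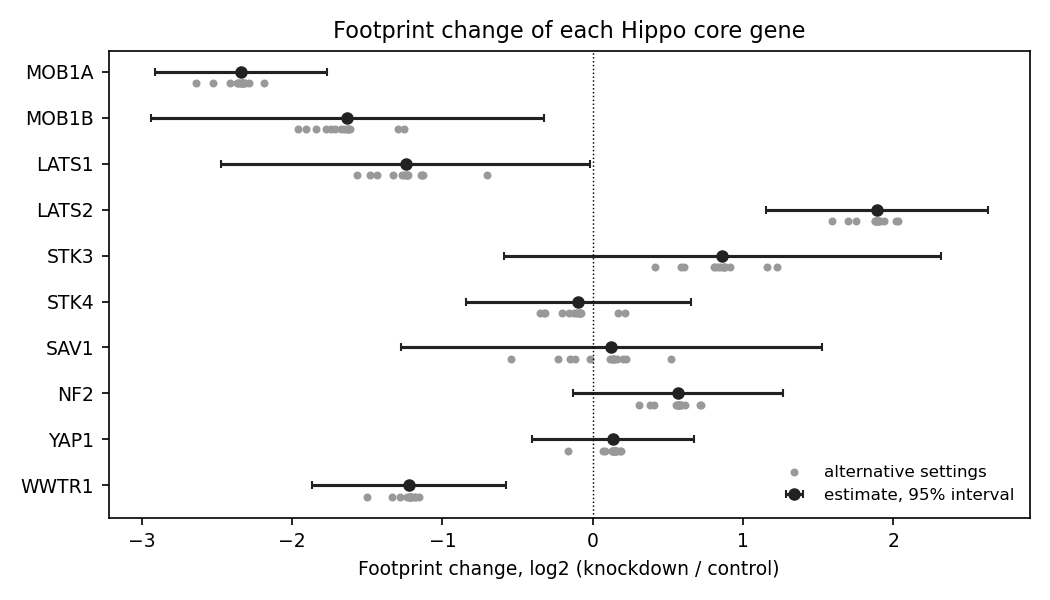
Log2 change of footprints, knockdown over control, for each gene, with the 95% interval of the edgeR fit over 3 libraries a group (black) and the values under the alternative settings below it (grey). The intervals of MOB1A, LATS2 and WWTR1, and those of MOB1B and LATS1 more narrowly, do not reach 0. They are for single genes and not adjusted over features. In edgeR, 16.3% of all tested features had an unadjusted p under 0.05, as did these 5 genes. SAV1, STK4 and YAP1 have alternatives on both sides of 0.

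**Figure D4:**
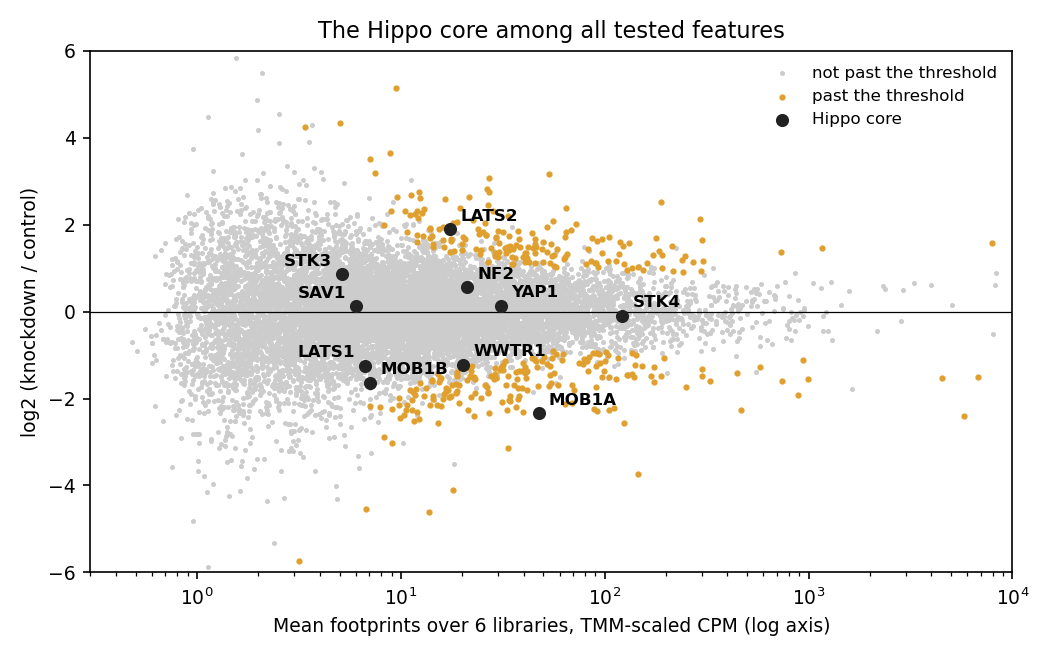
Log2 change against mean footprints over the 6 libraries (CPM, log axis) for the 11653 tested features, of which 44 lie outside the axes, with features past the adjusted threshold in orange and the 10 genes in black. MOB1A (-2.34), LATS2 (1.89) and WWTR1 (-1.22) lie among the called features, the other 7 within the grey cloud.

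Precision differed between the members. The standard error of the log2 change was at least 0.56 for MOB1B, LATS1, STK3 and SAV1, whose means were at most 10.7 CPM in each group. It was at most 0.34 for MOB1A, LATS2, STK4, NF2, YAP1 and WWTR1. For the less abundant genes, a change the size of that of WWTR1 lay within the 95% interval of MOB1B and LATS1, and its mirror image within those of STK3 and SAV1.

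Across the 6 libraries the pattern of MOB1A was followed most closely by ENSG00000135862.6_4 and ENSG00000134809.9_5, whose Pearson's r with MOB1A in log2(CPM + 1) was 0.995 and 0.994 among the 5907 features that averaged 10 CPM or more. The first averaged 263 ± 12 CPM over the controls and 125 ± 8 over the knockdown libraries, and the second 116 ± 8 and 59.8 ± 3.5 (SD, n = 3 each). Both were lower in the knockdown, by less than MOB1A (log2 differences of -1.07 ± 0.20 and -0.95 ± 0.21, SE). Within the set, r with MOB1A was 0.958 for WWTR1, 0.880 for MOB1B, 0.737 for LATS1 and -0.937 for LATS2. The points share their libraries and fall into 2 groups, so these values mostly restate the difference between the groups.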

How the data were processed

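The values as deposited are whole-number read counts for each Ensembl ID with a different total in each library, and no scaling by the authors is seen in them. The tools named are fastp and Bowtie 1.3.1, and the build is hg38, per the submitters' processing notes. How reads were assigned to genes, and with which annotation, read lengths and strand setting, is not given in the sources used here. The control columns carry the name of a vector, and assay and number tied them to the control hairpin samples. A further 6 per-sample columns, named for RNA, match no sample described here and were not used, so translation efficiency was not computed. Gene symbols of the members came with their IDs.

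Features kept by filterByExpr were TMM-scaled and tested with edgeR 4.0.16 in R 4.3.3 (glmQLFit and glmQLFTest, two-sided, Benjamini-Hochberg over all features). The standard error is the log2 change divided by the square root of F, and the 95% interval uses the fit's t distribution. Alternatives were DESeq2 1.42.0, limma 3.58.1 with voom, other scalings and filters, the replicate block and each library left out. The method was tested on simulated data. It recovered 0 of 180 tested features given a 2-fold change, and 87 of 179 given a 4-fold change. All 87 had the right direction, with 1 false call at 4-fold and 0 at 2-fold. A member with a 2-fold change could thus go uncalled. The members and lists were chosen with earlier results of these data known. The rule for named features took all 10 members and the 2 features most like MOB1A. Lists of other Hippo genes and cell type markers, given by symbol, were not analysed here. The binomial intervals of the shares cover counting error only, while the edgeR intervals also include the spread between libraries. No molecular identifiers are described, so copies of a molecule were not told apart from separate molecules. The binomial intervals treat every count as separate.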

Additional observations from a re-analysis of the deposited data

How the results depend on the processing

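MOB1A, LATS2 and WWTR1 were called under all 8 other scalings, tools and filters. They were 3 of the 10 genes, or of the 6 tested with at least 10 CPM in 3 libraries. The replicate block left 2 (MOB1A and LATS2, with WWTR1 at an adjusted p of 0.0838 in edgeR), and leaving out 1 library left 1 to 2. All called features were 364 of 11653 tested in the main setting. Other scalings, the top 50 features removed and limma voom gave 356 to 443. The count moved to 834 of 8178 in DESeq2 and 735 of 20515 with no filter on low counts. With at least 10 CPM in 3 libraries it was 602 of 6111. It was 208 of 11653 with the replicate block, and between 47 and 171 with 1 library left out, where 11886 to 12706 were tested. The causes were not tested. Same-numbered libraries deviated from their group means with r = -0.0017, -0.021 and 0.060. No pairing was seen, but these values cannot exclude one. STK4 changed sign to 0.17 and 0.21 without control library 1 and knockdown library 1, and ran from -0.35 to 0.21 with 1 library left out. SAV1 went to -0.15 with library size alone, -0.23 in limma voom and -0.12 with the replicate block, and ran from -0.54 to 0.52 with 1 library left out. YAP1 went to -0.16 with library size alone. MOB1B, LATS1, STK3 and NF2 kept their sign and passed the threshold in no alternative that tested them. The order of the genes by footprints per coding length was not run, since no coding lengths were used here. Counts of 17 to 136 per library limit MOB1B, LATS1, STK3 and SAV1. The control counts of LATS2, 53 to 72, lay in the same range.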
